A study of Mus musculus with 199 samples.

Results

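The libraries described here tested the volumes of reagent used to amplify the DNA of thin nuclear slices from 46C-ES mouse embryonic stem cells of strain 129/Ola. They were the 6 libraries titled as protocol a or protocol c of the reagent-volume experiment, and membership was set by the sample titles. The same table held 180 further libraries of profiles from other experiments, 11 water controls and 2 controls with human genomic DNA. Protocol a and protocol c were represented by 3 libraries each. All 6 belonged to the set that had failed the quality control of the study, so each statement is conditional on failure, and libraries of the same test that passed are not analysed here.

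In genome architecture mapping (GAM), frozen cells are sectioned, the slice of a nucleus that lies in the section (a nuclear profile) is cut out with a laser, and its DNA is amplified and sequenced. Each chromosome occupies a compact territory in the nucleus. A thin slice therefore crosses the territories of some chromosomes and misses others, and where it crosses one it picks up runs of neighbouring loci. Loci that are often found in the same slices are inferred to lie close together. Whole genome amplification has to copy a very small amount of DNA without losing loci, so the volumes of enzyme and buffer are worth testing.

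In every library, 4 profiles (4np) from 220 nm cryosections were placed in 1 collection cap. The profiles of all 6 were lysed in 14.5 µl of mix, made of 13 µl of water, 1.4 µl of lysis buffer and 0.1 µl of proteinase K, for 4 h at 50 °C. DNA was then amplified with the Sigma WGA4 kit over 25 cycles and sequenced from Nextera libraries. No stain was named for any of them. Protocol a used 4.32 µl of library preparation mix (2.88 µl of buffer and 1.44 µl of stabilisation solution), 1.4 µl of enzyme and 87.84 µl of amplification mix, which held 10.8 µl of buffer, 69.84 µl of water and 7.2 µl of polymerase. Protocol c used 5.35 µl of preparation mix (3.57 µl and 1.78 µl), 5.35 µl of enzyme diluted 3-fold in water and 108.9 µl of amplification mix, which held 13.4 µl of buffer, 86.6 µl of water and 8.9 µl of polymerase. The volumes thus changed together, and the effect of a single reagent cannot be told apart from that of the others. The well names put the 2 protocols in different columns of the plate, so plate column and protocol cannot be told apart either. Replicate 3 of each protocol lay in plate row F, and no other row held more than 1 of the 6 libraries. Nothing in the labels says whether caps came from separate cultures, and p-values then measure only the spread between these caps. The cell type cannot be checked from calls on DNA.

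The deposited values were calls, 1 for a 40 kb window detected in the library and 0 for any other. They carry no read depth, so a library with few calls may hold little DNA or few reads. Coverage below is the share of the 65983 windows on chromosomes 1 to 19 and X that were called, and intervals are 95% Wilson intervals that cover counting error only. Chromosome positions are in mm9.

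The windows called in several of the 6 libraries are shown first, together with how often other libraries called them. Of all windows, 4083 were called in 1 of the 6 libraries, 88 in 2, 6 in 3 and 1 in 4. The window called in 4 was chr2:98480001-98520000, which overlaps exons of the predicted genes Gm10801 and Gm10800 and was absent only from replicates 1 and 2 of protocol a. It was also the window called most often in the 180 4np libraries of the other experiments, in 135 of them (75.0%). Part of the window held a tandem repeat with a period of 234 bases, at which 39.2% of bases matched over the best 2000. Its best-matching adjacent copies, at chr2:98506706-98506939 and chr2:98506940-98507173 (NCBIM37, plus strand, overlapping exons of Gm10800), were identical at 226 of 234 bases. They are printed in lower case with the differing bases in capitals.
chr2 copy 1: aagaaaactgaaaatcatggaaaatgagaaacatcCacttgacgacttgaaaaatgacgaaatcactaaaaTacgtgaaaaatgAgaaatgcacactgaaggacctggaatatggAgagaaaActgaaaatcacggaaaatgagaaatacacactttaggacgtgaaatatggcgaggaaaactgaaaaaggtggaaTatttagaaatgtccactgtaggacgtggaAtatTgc
chr2 copy 2: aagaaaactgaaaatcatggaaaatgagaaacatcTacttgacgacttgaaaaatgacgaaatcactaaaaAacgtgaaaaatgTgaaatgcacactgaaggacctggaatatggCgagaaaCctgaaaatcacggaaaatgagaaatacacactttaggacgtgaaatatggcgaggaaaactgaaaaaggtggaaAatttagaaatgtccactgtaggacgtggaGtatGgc

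The 6 windows called in 3 libraries fell into 4 places. On chromosome 8, chr8:19920001-19960000 and chr8:19960001-20000000 were called in 54 and 45 of the 180 other 4np libraries. The first of these windows also held a tandem repeat, with a period of 156 bases and 85.5% identity between bases 1 period apart over its best 2000 bases. The copies at chr8:19926592-19926747 and chr8:19926748-19926903, in introns of 2610005L07Rik, Gm17279 and AC152164.1, were identical, so only the first is printed, with no capitals.
chr8 copy: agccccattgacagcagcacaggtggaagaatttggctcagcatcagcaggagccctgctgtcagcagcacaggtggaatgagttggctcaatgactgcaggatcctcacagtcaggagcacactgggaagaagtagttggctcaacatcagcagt
On chromosome 11, chr11:3040001-3080000 and chr11:3080001-3120000 lie at Sfi1, which encodes a centrosomal protein, and were called in 95 and 82 of the other libraries. The window chr6:103560001-103600000, at the neural adhesion gene Chl1, was called in 99 of them. In the 5 windows of the 7 that are not printed, the best-matching offsets were 22 bases (chromosome 7), 31 bases (the second window of chromosome 8), 25 and 48 bases (chromosome 11) and 846 bases (chromosome 6), with 32.8% to 45.1% of bases matching over the best 2000. Adjacent copies there matched at 80.7% to 100% for the 4 short offsets and at 38.8% for the long one. The 39.2% of the chromosome 2 window lay inside that range. The windows of chromosomes 6, 8 and 11 were among the 14 most often called of the genome in the other 4np libraries. The remaining window behaved differently. The window chr7:111560001-111600000 overlaps exons of Trim30a, a gene of the TRIM family, and was called in protocol a replicate 3 and protocol c replicates 2 and 3 but in only 5 of the 180 other libraries (2.78%), where the median window was called in 9. Each of the 7 windows was also called in 2 of the 11 water controls, which hold no profiles, and in 0 of the 9 with coverage under 1%.

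The libraries differed widely in how much of the genome they held. Protocol a replicate 1 held 52 called windows (0.0788%, interval 0.0601 to 0.103), replicate 2 held 4 (0.00606%, 0.00236 to 0.0156) and replicate 3 held 438 (0.664%, 0.605 to 0.729). Protocol c replicate 1 held 447 (0.677%, 0.618 to 0.743), replicate 2 held 3040 (4.61%, 4.45 to 4.77) and replicate 3 held 300 (0.455%, 0.406 to 0.509). The 2 smallest libraries were thus of protocol a and the 2 largest of protocol c, while protocol a replicate 3 exceeded protocol c replicate 3. Mean coverage was 0.250% ± 0.361 (SD, n = 3) with protocol a and 1.91% ± 2.34 (SD, n = 3) with protocol c. The difference of 1.66 percentage points was within the spread between caps. Its p in an exact permutation test, two-sided, was 0.2 and its adjusted p over 4 measures 0.267, and protocol c was higher in 8 of 9 pairs of caps. With 3 caps against 3 the smallest p the test can give is 0.1. Protocol c replicate 2 carried most of the difference, which was 0.316 percentage points without it.

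For scale, coverage of the 180 other 4np libraries ranged from 0.00152% to 26.8% with a median of 2.64%. Only protocol c replicate 2 lay above that median, with 111 of the 180 below it. The 9 water controls with coverage under 1% reached 0.476%. Protocol a replicates 1 and 2 and protocol c replicate 3 lay below that value, whereas protocol a replicate 3 and protocol c replicate 1 lay above it. The other 2 water controls were higher, up to 21.4%. Coverage alone therefore did not separate 3 of the 6 libraries from the low water controls. Of the 4 calls of protocol a replicate 2, 2 were also called in a low water control, at chr3:5840001-5880000 and chr14:49400001-49440000. The other 2 of its calls lay at the RNA-binding protein gene Samd4 (chr14:47600001-47640000) and at Ofcc1 (chr13:40360001-40400000). In protocol a replicate 1 the share of calls seen in a low water control was 5.77% (3 of 52), and in the 4 larger libraries it lay between 1.34% and 2.00%, against 1.30% of all windows.

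The next question was which chromosomes each library held. A chromosome is called held here when the lower bound of its coverage lay above the coverage of the whole library. No correction was made for the 20 chromosomes looked at in each library. Protocol c replicate 1 held chromosomes 4, 5, 6 and 11. Its coverage was 3.02% on chromosome 5 (115 calls), 2.34% on chromosome 4 (91 calls), 1.74% on chromosome 6 (65 calls) and 1.48% on chromosome 11 (45 calls). Together with chromosome 2, these chromosomes took 357 of its 447 calls (79.9%) with 28.8% of the windows. Of the other chromosomes, chromosome 15 had 21 calls (0.811%), chromosome 13 had 18, chromosome 3 had 15 and chromosome 10 had 14, and the rest had at most 5 each. There was no call on the 2458 windows of chromosome 16, which allows a share of up to 0.122%, and 12 of the 20 chromosomes lay below the library's coverage with their whole interval. The median autosome had a coverage of 0.176%.

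Protocol c replicate 2 held 8 chromosomes, namely 4, 7, 11, 14, 15, 18, 19 and X. Chromosome 19 was the fullest with 222 of 1534 windows (14.5%, lower bound 12.8), followed by chromosome 14 with 9.20% and chromosome 11 with 8.70%. Chromosome 13 was the emptiest with 0.831%, and the fullest and emptiest autosomes differed 17.4-fold. A further 10 chromosomes lay below the library's coverage. The library had calls on every chromosome.

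Protocol a replicate 3 and protocol c replicate 3 were more even. In protocol a replicate 3 the autosomes ranged from 0.288% on chromosome 14 to 0.985% on chromosome 11 (3.42-fold), and in protocol c replicate 3 from 0.193% on chromosome 15 to 0.853% on chromosome 11 (4.42-fold). Chromosome 11 was the only chromosome held by either. The calls on it included 3 and 2 windows, respectively, of the often-called Sfi1 stretch. Whether it is held without them was not tested. In protocol a replicate 3 its 30 calls gave a lower bound of 0.691%, close to the library's coverage of 0.664%. Chromosome 12, with 27 calls in that library, had a lower bound of 0.613% and was not held. The 5 chromosomes with the most calls, which favours long chromosomes, took 34.7% and 36.3% of the calls with 29.6% and 29.5% of the windows. Protocol a replicate 1 held chromosomes 8, 9, 14 and 16 on 7, 6, 9 and 5 calls, and had none on chromosomes 1, 3, 7, 11 and X. Protocol a replicate 2 had 2 calls on chromosome 14 and 1 each on chromosomes 3 and 13, too few to describe a pattern.

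**Figure D1:**
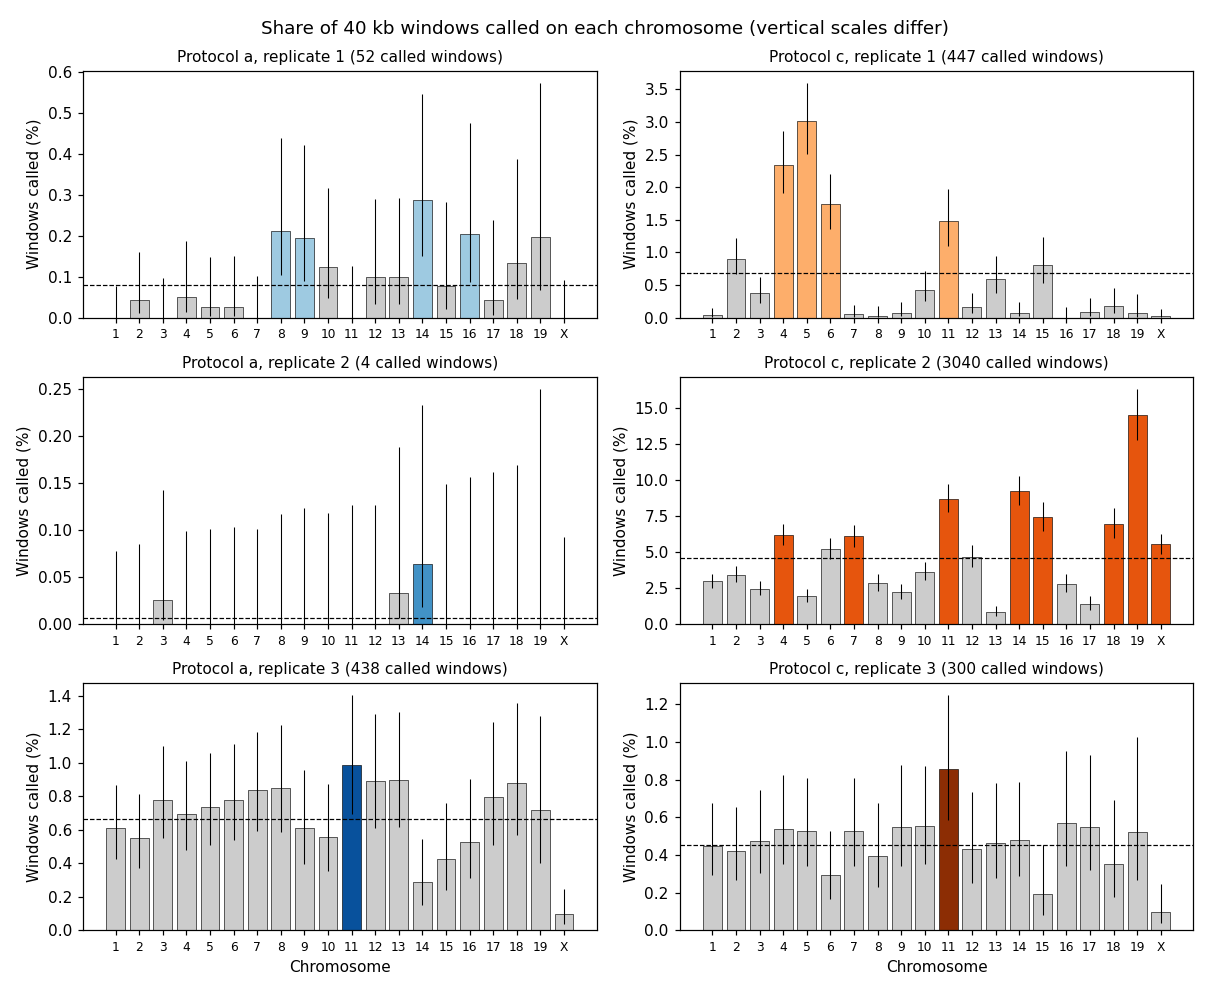
Share of 40 kb windows called on each chromosome in each library, with bars from 0, 95% Wilson intervals and a different vertical scale in each panel. Coloured bars are chromosomes held above the library's own coverage, which the dashed line gives. Protocol c replicates 1 and 2 have tall and near-empty chromosomes (3.02% against 0 and 14.5% against 0.831%), while the autosomes of replicate 3 of each protocol range from 0.288% to 0.985% and from 0.193% to 0.853%.

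Protocol c had the higher mean on 20 of 20 chromosomes, and on 16 of 20 without protocol c replicate 2, where chromosomes 8, 12, 18 and 19 turned. Chromosomes on which all protocol c libraries exceeded all protocol a libraries numbered 0 of 20 (0.0%), and the reverse was also 0 of 20 (0.0%). Libraries did not share their order of chromosomes. Spearman's rho over the 19 autosomes was 0.07 between protocol c replicates 1 and 2, -0.04 between replicate 3 of each protocol and -0.28 between protocol a replicates 1 and 3. Against the mean GC content of the autosome, rho was 0.36 in protocol a replicate 3, 0.27 in protocol c replicate 3, 0.15 in protocol c replicate 1, 0.14 in protocol c replicate 2 and -0.13 in protocol a replicate 1. These are descriptions over chromosomes of single libraries.

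The 46C line derives from male cells, in which chromosome X has a single copy, so slices cross it less often than an autosome. Calls on its 4167 windows numbered 0, 0 and 4 in protocol a replicates 1 to 3 and 1, 230 and 4 in protocol c replicates 1 to 3. At the coverage of each library, 3.28, 0.253 and 27.7 calls would have fallen on X in protocol a and 28.2, 192 and 18.9 in protocol c. Divided by the coverage of the autosomes, that of X gave 0.137 in protocol a replicate 3, 0.0333 in protocol c replicate 1, 1.21 in protocol c replicate 2 and 0.200 in protocol c replicate 3. A count of 0 in protocol a replicates 1 and 2 allows an X coverage of up to 0.0720%, which is just below the coverage of the autosomes in replicate 1 (0.0841%) and above it in replicate 2 (0.00647%). The upper Wilson bound of 0.0921% lay above both, so a lower level of X was not detectable in replicate 2 and only at the margin in replicate 1. Among 145 other 4np libraries with at least 100 calls this quotient lay between 0 and 2.58 and had a median of 0.512, with 46 libraries below 0.25 and 22 above 1.

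Adjacent calls were then joined into stretches. The neighbour share is the percentage of called windows with a call in an adjacent window, and the neighbour excess is that share minus the share that the same number of scattered calls would give. Calls with a neighbour numbered 0 of 52, 0 of 4 and 11 of 438 (2.51%) in protocol a and 180 of 447 (40.3%), 1433 of 3040 (47.1%) and 6 of 300 (2.00%) in protocol c. The excess was -0.15, -0.00909 and 1.19 percentage points in protocol a and 38.9, 38.1 and 1.1 in protocol c. Protocol c replicates 1 and 2 thus stood far above protocol a replicates 1 and 3 and protocol c replicate 3. For protocol a replicate 1, 0 neighbours among 52 calls allow a share of up to 5.77%, so a small excess was not detectable there. For protocol a replicate 2, 0 among 4 calls allow a share of up to 75.0%, so its measures of stretches say nothing of how its DNA was grouped, although it is counted in the means and pairs below. Libraries of nearly equal size fell on opposite sides. Protocol a replicate 3 and protocol c replicate 1 had 438 and 447 calls, and a neighbour share of 2.51% (interval 1.41 to 4.44) and 40.3% (35.8 to 44.9).

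**Figure D2:**
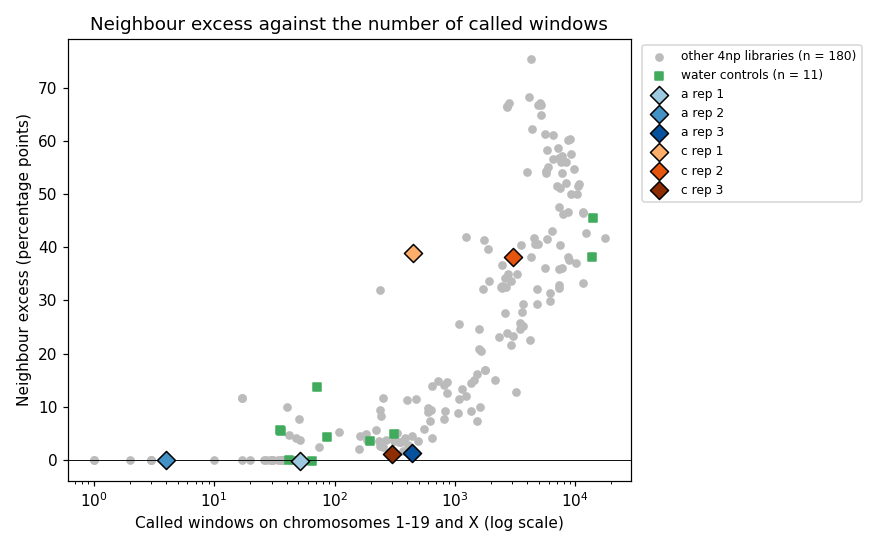
Neighbour excess in percentage points against the number of called windows (log scale) for the 6 libraries (diamonds), 180 other 4np libraries (grey) and 11 water controls (green squares). Protocol c replicate 1 (447 calls, 38.9) lies above libraries of its size, and replicate 3 of each protocol (438 calls, 1.19, and 300 calls, 1.1) lies at their lower edge.

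To compare libraries with similar numbers of calls, the 3 libraries with 200 to 700 calls were placed beside the 28 other 4np libraries in that range. The excess of those 28 ranged from 1.59 to 31.9 percentage points with a median of 4.79. Most of them were stained libraries of 1 test, crystal violet replicates 2 to 16, whose excess lay between 1.59 and 5.72. All 28 lay below protocol c replicate 1, and protocol a replicate 3 and protocol c replicate 3 were lower than all 28. In the share of calls on the 5 chromosomes with the most calls (range 37.0% to 79.9%, median 45.2%), protocol c replicate 1 was higher than 27 of the 28, and the other 2 libraries were again lower than all 28. Libraries of the same protocol therefore stood at opposite ends of the set.

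Mean neighbour excess was 0.343 ± 0.739 (SD, n = 3) with protocol a and 26.1 ± 21.6 (SD, n = 3) with protocol c. The difference of 25.7 percentage points had an exact permutation p of 0.2 (two-sided, adjusted p = 0.267), with protocol c higher in 8 of 9 pairs. The longest stretch was 40, 40 and 120 kb in protocol a and 200, 400 and 80 kb in protocol c, a mean of 66.7 ± 46.2 kb against 227 ± 162 kb (SD, n = 3 each). That difference of 160 kb also had an exact permutation p of 0.2 (adjusted p = 0.267), and protocol c was higher in 8 of 9 pairs. Stretches of 3 or more windows held 0%, 0% and 0.685% of calls in protocol a and 13.9%, 19.2% and 0% in protocol c. Here the difference of the means, 10.8 percentage points, had an exact permutation p of 0.4 (adjusted p = 0.4), with protocol c higher in 6 and tied in 2 of 9 pairs. None of the 4 measures passed the threshold of 0.05, which 3 caps against 3 cannot reach. Without protocol c replicate 2 the difference in the longest stretch was 73.3 kb and that in the share of long stretches 6.71 percentage points. Without protocol c replicate 3 the share of long stretches differed by 16.3 percentage points. The sizes depended on the definitions. Counting only stretches of at least 5 windows gave 1.38 percentage points, and bridging a single uncalled window gave 480 kb for the longest stretch.

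**Figure D3:**
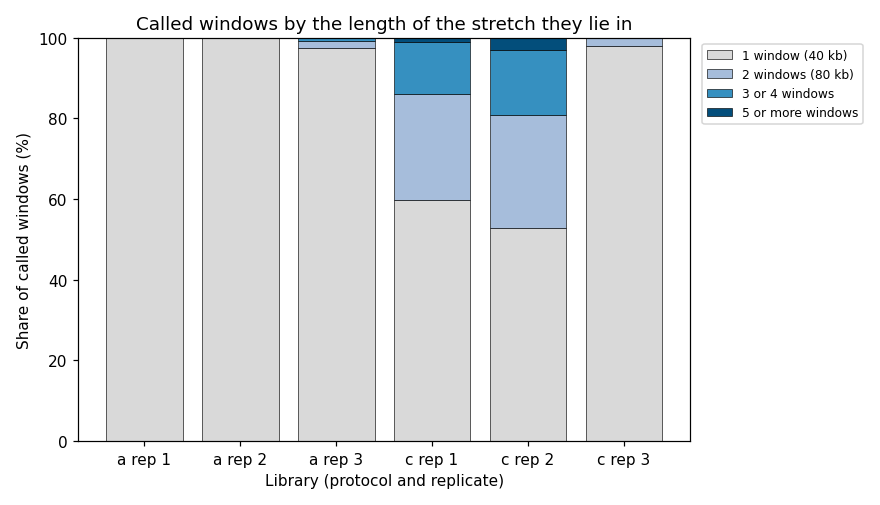
Share of called windows (vertical axis, in percent) that lie in stretches of 1, 2, 3 or 4, and 5 or more adjacent called windows, for each library. Single windows make up 59.7% and 52.9% of calls in protocol c replicates 1 and 2 and at least 97.5% in the other 4 libraries.

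In protocol c replicate 2, calls formed 2201 stretches, of which 170 had at least 3 windows. Its 2 longest measured 400 kb. The stretch at chr11:84200001-84600000 covered Aatf, Acaca, which encodes an acetyl-CoA carboxylase of fatty acid synthesis, and Lhx1, a transcription factor of early head and kidney development. The stretch at chr19:47960001-48360000 covered Sorcs3, a neuronal sorting receptor, with Ccdc147, Wdr96 and Itprip. Next came chr3:66080001-66320000 with 240 kb at Veph1, which was 1 of 2 stretches of that length. The windows of these 3 stretches were called in a median of 12, 7 and 6 of the 180 other libraries, so they were not the recurrent windows described above. In protocol c replicate 1, calls formed 345 stretches, 19 of them with at least 3 windows. Among its longest were stretches of 160 kb at chr6:86640001-86800000 (Anxa4, Gmcl1 and Aak1) and chr11:108080001-108240000 (Apoh and Prkca, a protein kinase C).

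The longest stretches of the 2 more even libraries included windows that other libraries often called. The only stretch of 3 windows in protocol a replicate 3, chr11:3000001-3120000 at Sfi1, Drg1 and Eif4enif1, was called in a median of 82 of the 180 other libraries. Of the 3 pairs of adjacent windows in protocol c replicate 3, chr11:3040001-3120000 was part of the same stretch and chr8:19920001-20000000 was the repeat-bearing place printed above. The third, chr11:107240001-107320000 at the phosphatidylinositol transfer protein gene Pitpnc1, was called in a median of 17.5 others. Among the 4 pairs in protocol a replicate 3, chr3:137440001-137520000, which overlaps no protein-coding gene, was called in a median of 10.5 others. A further pair, chr4:139280001-139360000, lay at Pax7, a transcription factor of muscle satellite cells, and was called in a median of 14.5 others.

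Calls that were not adjacent also lay close together in protocol c replicates 1 and 2. When up to 5 uncalled windows (200 kb) were bridged, the longest cluster of protocol c replicate 2 was chr19:47640001-50320000 with 33 of 67 windows called (49.3%), a stretch of 2.68 Mb that carries Sorcs3 and Sorcs1. Its next clusters were chr11:112160001-114120000 with 20 of 49 and chr14:59840001-61680000 with 18 of 46 windows. In protocol c replicate 1 the longest were chr2:149080001-150160000 with 10 of 27, chr5:26640001-27600000 at Dpp6 with 9 of 24 and chr5:49600001-50520000 at Kcnip4 with 8 of 23 windows. Dpp6 and Kcnip4 encode partners of voltage-gated potassium channels. Even the longest clusters of these 2 libraries were therefore called in fewer than 50% of their windows.

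The same could be seen from pairs of called windows at a set distance, compared with calls scattered within each chromosome at the library's own number there. At 40 kb, protocol c replicate 1 had 102 pairs where 8.05 were expected (ratio 12.7) and protocol c replicate 2 had 839 where 188.6 were expected (ratio 4.45). The ratio fell with distance to 7.09 and 2.97 at 400 kb, 3.02 and 1.61 at 2000 kb and 1.55 and 1.27 at 4000 kb, and at 10000 kb it was 1.65 and 1.16. Protocol a replicate 3 had 6 pairs at 40 kb where 3.10 were expected (ratio 1.94), 30 at 400 kb where 15.4 were expected (ratio 1.94) and 88 at 2000 kb where 64.0 were expected (ratio 1.37), with a ratio of 1.03 at 10000 kb. Protocol c replicate 3 had 3 pairs at 40 kb where 1.42 were expected (ratio 2.11), 9 at 400 kb where 7.10 were expected (ratio 1.27) and 41 at 2000 kb where 29.5 were expected (ratio 1.39), with a ratio of 1.03 at 10000 kb. At 2000 kb the ratios of these 2 libraries were thus close to that of protocol c replicate 2. Protocol c replicate 1 had the highest ratio of the 4 libraries at every distance measured. The ratios at 40 kb of protocol a replicate 3 and protocol c replicate 3 rest on few pairs.

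**Figure D4:**
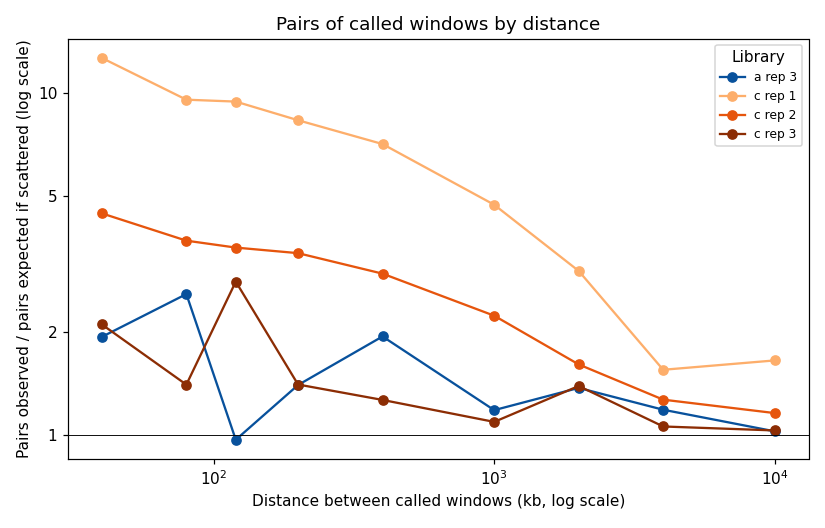
Pairs of called windows observed over pairs expected for calls scattered within each chromosome (log scale), against the distance between them in kb (log scale), for the 4 libraries with at least 300 calls. Protocol c replicate 1 falls from 12.7 at 40 kb to 3.02 at 2000 kb and replicate 2 from 4.45 to 1.61, while protocol a replicate 3 and protocol c replicate 3 stay below 3 throughout.

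Calls were also grouped within some chromosomes of protocol c replicates 1 and 2. For each chromosome with at least 20 calls, the shortest span that held 50% of its calls was found. In protocol c replicate 1 this span measured 1.28 to 29.2 Mb over 6 chromosomes, with a median of 11.4 Mb. On chromosome 15, 11 of 21 calls lay in chr15:98800001-100080000, which is 1.24% of the chromosome and includes Dip2b, Lima1, Spats2 and Fmnl3. On chromosome 2, 21 of 41 calls lay in the 4.52 Mb of chr2:145640001-150160000. In protocol c replicate 2 the span measured 1.20 to 52.7 Mb over 20 chromosomes (median 23.7 Mb). Chromosome 13, its emptiest autosome, had 13 of 25 calls in chr13:69800001-71000000, at Adamts16, Ube2ql1, Med10 and BC018507. In protocol a replicate 3 the span was never below 23.1 Mb (12 chromosomes, median 37.9 Mb), and in protocol c replicate 3 never below 24.8 Mb (5 chromosomes, median 44.4 Mb). Chromosomes with fewer than 20 calls, among them the emptiest of the last 2 libraries, were not measured. The chromosomes measured thus differed between libraries in length and number of calls, and no span for scattered calls was calculated. As a share of the chromosome, the span was 1.24% to 19.2% in protocol c replicate 1 and 0.997% to 35.3% in replicate 2. It was 15.7% to 37.7% in protocol a replicate 3 and 16.3% to 36.4% in protocol c replicate 3. The medians in Mb therefore do not compare grouping alone.

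Blocks of 10 Mb gave the same picture. Of 275 blocks, 233, 272 and 79 had no call in protocol a and 204, 85 and 106 had none in protocol c. With 447 calls against 438, protocol c replicate 1 left 204 blocks empty and protocol a replicate 3 left 79. The fullest block of protocol c replicate 1, chr4:130000001-140000000, had 28 of 250 windows called (11.2%), and that of protocol c replicate 2, chr19:50000001-60000000, had 66 of 250 (26.4%). No block of protocol a replicate 3 or protocol c replicate 3 had more than 7 and 6 calls.

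The called windows were compared with all windows in base composition and gene content, which the choice of libraries did not use. The median GC content of called windows was 44.3% in protocol a replicate 1, 43.6% in protocol a replicate 3, and 44.1%, 41.5% and 43.9% in protocol c replicates 1 to 3, against 41.1% for all windows. Protocol a replicate 2 had too few calls to be described. Windows of the highest GC quartile made up 50.0% (interval 36.9 to 63.1) and 41.1% (36.6 to 45.8) of calls in protocol a replicates 1 and 3, and 47.0% (42.4 to 51.6), 26.4% (24.9 to 28.04) and 43.7% (38.2 to 49.3) in protocol c replicates 1 to 3. In protocol c replicate 2 it was the lowest quartile that was short of calls, with 19.9% (18.5 to 21.4). The shift was present within chromosomes. The median difference between a called window and the median of its own chromosome was 2.55 and 2.18 percentage points in protocol a replicates 1 and 3, and 2.26, 0.335 and 2.31 in protocol c replicates 1 to 3. Protocol c replicate 1 was thus unlike the other GC-rich libraries in its grouping and like them in its composition.

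**Figure D5:**
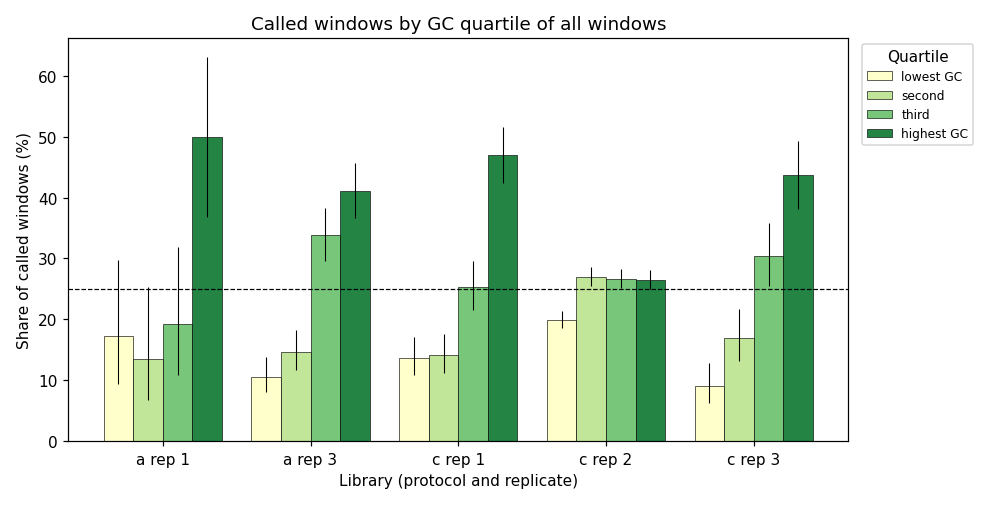
Share of called windows (percent, with 95% Wilson intervals) in each quartile of GC content of all windows, for the 5 libraries with at least 20 calls, with the dashed line at 25%. The highest quartile takes 41.1% to 50.0% of calls in 4 libraries and 26.4% in protocol c replicate 2.

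Among the 28 other 4np libraries with 200 to 700 calls, median GC ranged from 40.3% to 43.7%. Protocol c replicates 1 and 3 lay above all 28 and protocol a replicate 3 above 26 of them. Over all 169 other 4np libraries with at least 20 calls the range was 40.0% to 44.5%, so the 5 libraries lay inside it. Called windows overlapped a protein-coding gene in 63.5% and 69.2% of cases in protocol a replicates 1 and 3 and in 67.1%, 57.6% and 69.0% in protocol c replicates 1 to 3, against 53.1% of all windows. GC content and gene overlap go together in the mouse genome, and their parts in these shares were not tested.

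Pairs of libraries shared few windows. Protocol a replicate 3 and protocol c replicate 3 shared 14 windows, 3.20% and 4.67% of their calls, where scattered calls would share 1.99. When the 1% of windows called most often in other experiments was set aside, 6 of the 14 were left. Protocol c replicates 1 and 2 shared 30 windows (6.71% and 0.987% of their calls) where 20.6 would be shared by scattered calls, and 27 were left without the most-called windows. Protocol c replicates 2 and 3 shared 27 where 13.8 would be shared by scattered calls, and 20 were left. Across protocols, protocol a replicate 3 and protocol c replicate 2 also shared 27, where scattered calls would share 20.2, and 20 were left.

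Genes of the pluripotency network, which mark the identity of embryonic stem cells, were looked up as a fixed list of 20 genes that included Pou5f1, Nanog, Sox2, Klf4 and Esrrb. Tfcp2l1 was found under an older symbol. Windows overlapping these genes numbered 27, and 0 of them were called in any of the 6 libraries. Scattered calls would have given 1.24 in protocol c replicate 2 and at most 0.183 in the others, so this absence was not informative at this coverage. The 484 windows within 480 kb of these genes held 0, 0 and 3 calls in protocol a replicates 1 to 3 and 1, 19 and 5 calls in protocol c replicates 1 to 3. Scattered calls would have given 0.381, 0.0293 and 3.21 in protocol a and 3.28, 22.3 and 2.20 in protocol c. The surroundings of 9 of the 20 genes had no call in any of the 6 libraries, and the most calls, 8 of protocol c replicate 2, lay near Lefty1, an inhibitor of Nodal signalling that was named after the values were seen.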

How the data were processed

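Nuclear profiles of 46C-ES cells were sequenced by the authors, aligned to mm9 with Bowtie2 (version 2.1 per the labels), stripped of PCR duplicates and called with GAMtools at a fixed read threshold. The deposited table held 1 row per 40 kb window and a call of 0 or 1 per library, with no other unit. Depth is not given by calls, so the precision of each share is that of its number of windows. All 199 columns were matched to a sample by well name and 0 were left unmapped. Of 68162 rows, 3.20% lay outside chromosomes 1 to 19 and X and were not used for the main measures. The window ends of those chromosomes equalled the NCBIM37 lengths, and genes were taken from GENCODE on that assembly.

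Groups followed sample titles, and replicate numbers were given in accession order. The members and lists were chosen with earlier results of these data known. Coverage, neighbour excess, longest stretch and the share of calls in stretches of at least 3 windows were compared between protocols with two-sided exact permutation tests over libraries and Benjamini-Hochberg adjustment over the 4 measures, in Python 3.11.15 with numpy 2.4.6, scipy 1.17.1 and statsmodels 0.14.6. The measures were tested on simulated calls with known stretches. The named windows were those called in most of the 6 libraries, the 3 longest stretches of each library with at least 100 calls (at most 4 protein-coding genes each) and the pluripotency list. The place of 1 of these stretches is not reported here. The spans holding 50% of a chromosome's calls, with their genes, were chosen after the values were seen. Tandem repeats were searched at offsets of 20 to 1000 bases over 2000 bases. Alternatives left out windows, chromosome X or each library, or changed the definition of a measure.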

Additional observations from a re-analysis of the deposited data

Results flagged for a closer look

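Outside chromosomes 1 to 19 and X, protocol a replicate 3 and protocol c replicate 3 each had calls on 0.138% of the 2178 rows of chromosome Y and unplaced contigs, where the 9 water controls with coverage under 1% had none and all 11 water controls reached 0.505%. These were 3 calls in each library on the same 3 windows, chrY:2760001-2800000, chrY:2840001-2880000 and chrY:2880001-2920000, which 59, 62 and 66 of the 180 other 4np libraries also called. The other 4 libraries had 0 such calls. Of the 28 other 4np libraries with 200 to 700 calls, 7 had a call on Y and 1 had at least 3. Both libraries that carried them were the even ones with low neighbour excess, and both lay in plate row F. Whether these facts are related was not tested.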

How the results depend on the processing

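All 4 comparisons kept their direction, with protocol c above protocol a, and stayed above the threshold of 0.05 under each alternative, none of which could give an exact permutation p below 0.1. Leaving out 1 library at a time gave differences of 0.316 to 2.39 percentage points in coverage, 19.3 to 38.2 in neighbour excess, 73.3 to 233 kb in the longest stretch and 6.71 to 16.3 percentage points in the share of long stretches. Over all alternatives p ranged from 0.1 to 0.6 for coverage and from 0.1 to 0.4 for each of the other measures. Bridging a single uncalled window gave a difference of 480 kb in the longest stretch, and counting only stretches of at least 5 windows gave 1.38 percentage points. Without windows called in a low water control, the share of calls in the highest GC quartile stayed inside its counting interval in all 5 libraries with at least 20 calls. The quotient of X and autosomal coverage, for which no interval was calculated, was then 0 and 0.139 in protocol a replicates 1 and 3. In protocol c replicates 1 to 3 it was 0.0338, 1.20 and 0.205. The count of chromosomes with a higher protocol c mean, an alternative chosen after seeing the data, fell from 20 to 16 without protocol c replicate 2 and was 20 without each of the other 5 libraries. No paired analysis was possible because the titles give no replicate numbers. With 3 caps against 3, calls without read depth and libraries that had all failed quality control, the comparison cannot separate protocol from plate column or from the caps themselves.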
